A study of Cyprinodon variegatus with 4 samples.

Results

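The circadian clock genes were taken from the deposited annotation by gene name. Every assembled contig (a reconstructed transcript) named PER1, PER2, PER3, CRY1, CRY2, CLOCK, ARNTL, NR1D1, NPAS2 or DBP, in any case and with or without a paralogue suffix, was a member. This gave 13 contigs of 257521 in the table, 24404 of which carried an annotation. They fell under 5 of the 10 names: PER1 with 2 contigs, NR1D1 with 3, CLOCK with 4, ARNTL with 1 and CRY1 with 3. No contig was matched to the names PER2, PER3, CRY2, NPAS2 or DBP. RefSeq's gene list for the C_variegatus-1.0 assembly of this species has the symbols per1, per2, clock, nr1d1 and dbp, so per2 and dbp stand in that list without a contig of that name here.

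The sheepshead minnow, Cyprinodon variegatus, is an estuarine killifish of toxicity tests, and RNA from the whole body of its larvae was measured in 4 libraries, 1 library per group. The groups were larvae with no treatment, larvae in the surfactant Tween 80 (0.001%, the surfactant control), and larvae with fibres of PET (polyethylene terephthalate, a polyester) at 10 mg/L, called low PET here, or at 100 mg/L, called high PET. Exposure ran for 10 days, and the stage in the labels is 72 h after fertilization, taken here as its start. The labels give no time of day, light cycle or number of larvae per library, no strain, and do not say whether the fibre groups also received Tween 80. With no replicates there is no error and no p-value: each comparison sets 1 library against another, and harvest time, batch and treatment cannot be told apart.

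In vertebrates the clock is a loop of transcription. CLOCK and BMAL proteins (BMAL is encoded by ARNTL) switch on the period and cryptochrome genes, whose proteins then inhibit CLOCK and BMAL, while REV-ERB (encoded by NR1D1) represses ARNTL. In zebrafish most tissues keep such a clock and are light-sensitive themselves; period and rev-erb transcripts there peak around dawn, clock and bmal transcripts around dusk, and per2 and a cry1 gene are induced by light. A difference in clock phase between libraries can therefore shift the morning genes (here PER1 and NR1D1) and the evening genes (CLOCK and ARNTL) in opposite directions.

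Expression is given as FPKM, fragments per kilobase of contig scaled to the mapped fragments of the library. This accounts for the length of each contig, listed at 393 (a CRY1 contig) to 3827 bases (ARNTL) among the members. It does not account for adding contigs together: where they are pieces of 1 transcript, the sum grows with the number of pieces. The order of genes below is therefore that of these sums and may differ from that of the transcripts. By the mean of the 4 libraries, with contigs of a name added together, PER1 was highest at 28.6 FPKM. NR1D1 followed at 12.7 FPKM, then CRY1 at 6.10, CLOCK at 5.98 and ARNTL at 0.453. PER1 stood above NR1D1 and NR1D1 above both CRY1 and CLOCK in every library. CRY1 and CLOCK could not be ordered, because CLOCK was the higher in the untreated and low PET libraries and CRY1 the higher in the surfactant and high PET libraries. In a whole body, fewer cells with a transcript and less of it per cell cannot be told apart.

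PER1, the period protein of the inhibiting arm, differed least among the members. Its sum was 28.5 FPKM in untreated larvae, 26.48 in the surfactant control, 30.72 at low PET and 28.74 at high PET. The highest library was 1.16-fold above the lowest. Among 791 gene symbols of like level (19.1 to 42.9 FPKM), the median log2 range over the 4 libraries was 0.22, and that of PER1 was 0.21.

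The PER1 total came from a pair of isoforms of a single assembled gene. The first, TR119773 c0_g1_i1, was at 16.18 FPKM in the untreated library, 15.96 in the surfactant control, 14.92 at low PET and 17.06 at high PET. The second, TR119773 c0_g1_i2, was at 12.32 FPKM untreated, 10.52 with surfactant, 15.8 at low PET and 11.68 at high PET. At low PET the second isoform thus exceeded the first, which no other library showed. Its share of the PER1 total was 51.4% at low PET, against 39.7% in the surfactant control, with 40.6% at high PET and 43.2% in untreated larvae. This swing of 11.7 percentage points was matched or exceeded by 31.1% of 718 isoform pairs with a mean of at least 5 FPKM for each isoform.

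NR1D1, the repressor that closes the second loop of the clock, was at 12.17 FPKM in untreated larvae, 11.49 in the surfactant control, 12.88 at low PET and 14.08 at high PET. The sum was therefore highest at high PET, by 1.23-fold over the lowest library. Most of it was TR124744 c0_g1_i1, with 11.4 FPKM untreated, 10.14 with surfactant, 11.55 at low PET and 11.79 at high PET, which varied less. The rest came from TR25766 c0_g1_i1, listed at 0.77 and 0.96 FPKM in the untreated and high PET libraries and at 0 in the others, and from TR64249 c0_g1_i1, at 0 in the untreated library, 1.35 in the surfactant control and 1.33 at both PET concentrations. Summed by annotation entry, Q63503 was the main contig alone, and Q3UV55 (the other pair) had 0.77 FPKM untreated, 1.35 with surfactant, 1.33 at low PET and 2.29 at high PET. Their sequences were not compared here, so whether the 3 contigs belong to 1 gene is not known. An unannotated contig with the same component number as the main one, TR124744 c1_g2_i1, was at 3.31 FPKM untreated, 2.39 with surfactant, 2.47 at low PET and 4.21 at high PET.

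CLOCK, the activating partner of BMAL, was highest in the untreated library and lowest in the surfactant control. Its sum was 6.96 FPKM in untreated larvae, 4.88 in the surfactant control, 5.35 at low PET and 6.72 at high PET. The log2 ratio (of FPKM + 0.5, used for all ratios here) was -0.47 for the surfactant control over the untreated library, 0.42 for high PET over the surfactant control and 0.12 for low PET over it. Of 1536 symbols of like level (3.99 to 8.97 FPKM), 71.7% had a range over the libraries no wider than the 0.47 of CLOCK.

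The contigs of CLOCK had unlike profiles. They came from separate components of the assembly. The component TR88076 summed to 3.50 FPKM in the untreated library, 2.54 in the surfactant control, 3.03 at low PET and 4.83 at high PET, where it was highest. The component TR58039 summed to 3.46 FPKM untreated, 2.34 with surfactant, 2.32 at low PET and 1.89 at high PET, lowest at high PET. Both were lower in the surfactant control than in untreated larvae, but at high PET over the surfactant control their differences had opposite signs. Within TR88076 the main contig, c0_g1_i1, was at 2.61 FPKM untreated, 2.54 with surfactant, 3.03 at low PET and 3.14 at high PET, whereas c0_g1_i2 was at 0.89 and 1.69 FPKM in the untreated and high PET libraries and listed at 0 in the other libraries. Within TR58039, c0_g2_i1 was at 2.29 FPKM untreated, 1.64 with surfactant, 0.94 at low PET and 1.11 at high PET. The other, c0_g1_i1, was at 1.17 untreated, 0.70 with surfactant, 1.38 at low PET and 0.78 at high PET. By annotation entry, the 3 contigs of Q9WVS9 summed to 4.35 FPKM untreated, 2.34 with surfactant, 2.32 at low PET and 3.58 at high PET, and Q8QGQ6 had the values of the main contig. The order of libraries in the CLOCK sum thus rests on contigs under 2.3 FPKM, and the main contig alone was lowest in the surfactant control by a small step only.

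ARNTL, which encodes BMAL, was listed low throughout, at 0.70 FPKM in the untreated library, 0.22 in the surfactant control, 0.27 at low PET and 0.62 at high PET. The untreated and high PET libraries were the higher ones, as for the CLOCK sum. With a mean under 1 FPKM it did not pass the filter used for ratios. Among 1435 symbols of like level (0.302 to 0.679 FPKM) the median log2 range was 1.26, against 0.74 for ARNTL. Those symbols were matched by FPKM and not by length, so whether the range of ARNTL was narrow for its number of fragments is not known. In plain FPKM its highest library was 3.18-fold above its lowest. Its component also held 3 contigs annotated as ARNTL2, a second BMAL gene, which summed to 1.98 FPKM untreated, 2.13 with surfactant, 1.60 at low PET and 1.97 at high PET. ARNTL and ARNTL2 together were at 2.68 FPKM untreated, 2.35 with surfactant, 1.87 at low PET and 2.59 at high PET, lowest at low PET. That is the lowest library of ARNTL2, whereas ARNTL alone was lowest in the surfactant control. The ARNTL contig is listed at 3827 bases and the ARNTL2 contigs at 273 to 286. At like FPKM such short contigs hold far fewer fragments, which neither the sum nor the filter on FPKM takes into account.

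CRY1, the cryptochrome that represses CLOCK and BMAL, had the widest range among the members past the filter. The sum was 5.83 FPKM in untreated larvae, 5.86 in the surfactant control, 4.63 at low PET and 8.08 at high PET. The high PET library was the highest and the low PET library the lowest, a log2 ratio of 0.74 between them. Over the surfactant control, high PET was higher by 0.43 and low PET lower, at -0.31. Of 1525 symbols of like level (4.07 to 9.15 FPKM), 87.2% had a range no wider than that of CRY1.

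Most of the CRY1 signal came from TR233 c0_g1_i1, at 5.65 FPKM in the untreated library, 4.45 in the surfactant control, 4.02 at low PET and 6.47 at high PET. On this contig alone high PET was still the highest, with a log2 ratio of 0.62 over low PET and 0.49 over the surfactant control. Other ratios differed more from those of the sum. High PET over the untreated library was at 0.18 (0.44 for the sum), and low PET over the surfactant control at -0.13 (-0.31 for the sum). The surfactant control over the untreated library was at -0.31 (0.01 for the sum). TR52281 c0_g1_i1 was at 0.18 FPKM untreated, 0 with surfactant, 0.61 at low PET and 0.22 at high PET. TR58985 c0_g1_i1 was listed at 0 in the untreated and low PET libraries and at 1.41 and 1.39 FPKM in the surfactant and high PET libraries. By annotation entry, Q5IZC5 summed to 5.83 FPKM untreated, 4.45 with surfactant, 4.63 at low PET and 6.69 at high PET, and P97784 was TR58985 alone. Fish carry several cryptochrome genes, and the annotation does not say which of them each contig is.

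**Figure D1:**
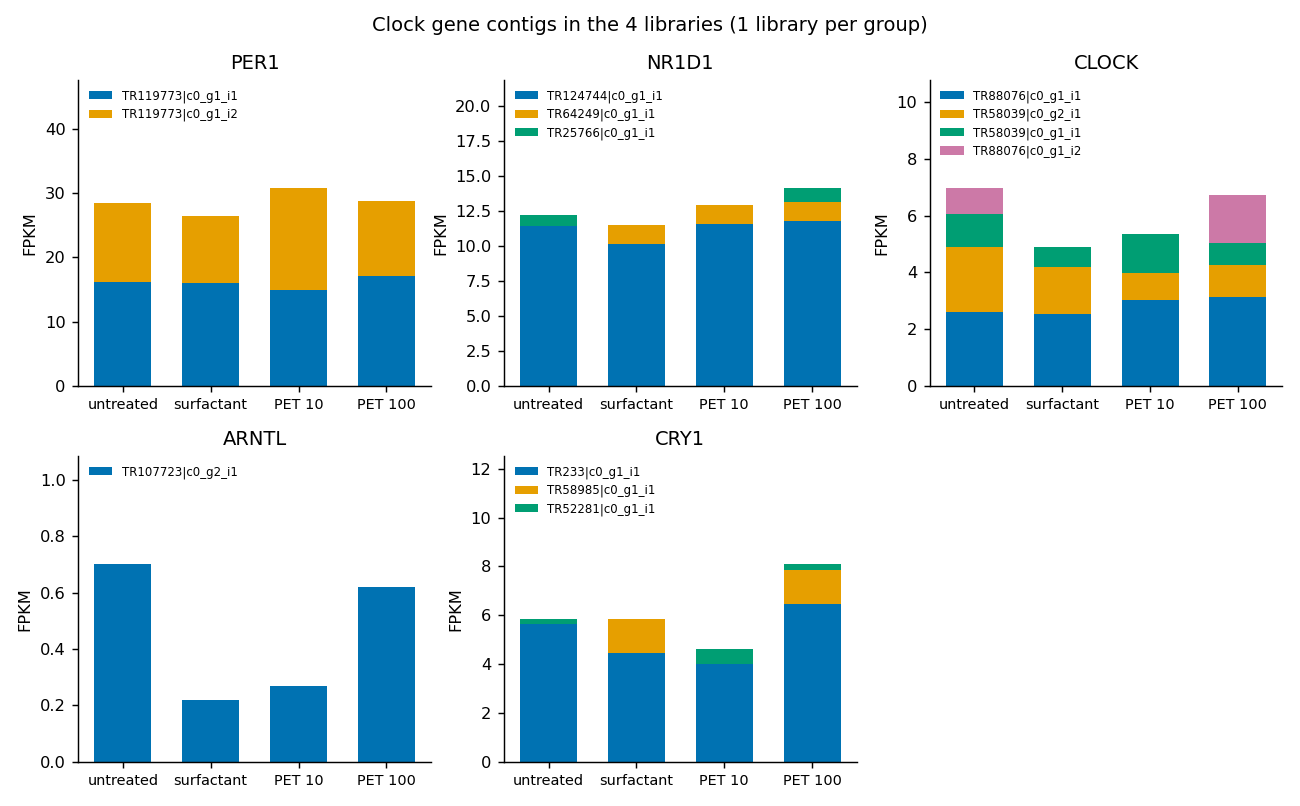
Stacked bars give FPKM per library (x axis: untreated, surfactant control, PET at 10 mg/L and at 100 mg/L, 1 library each), with 1 colour per contig of the gene in the panel title. PER1 stays between 26.48 and 30.72 FPKM, while the CRY1 bar reaches 8.08 FPKM at 100 mg/L and the minor CLOCK, NR1D1 and CRY1 contigs come and go between libraries.

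Contigs listed at 0 in at least 1 library made up 5 of the 13 members, and all but 1 of them had a mean under 1 FPKM. The share among all named contigs without a filter was not taken, so this count does not set the members apart. Of the 8 members with a mean of at least 1 FPKM, 1 (TR64249 c0_g1_i1 of NR1D1) was so listed; over all 10011 named contigs past that filter the share was 5.0%. The ratio of high PET to the surfactant control was 0.986 for TR58985 c0_g1_i1 of CRY1 and 0.985 for TR64249 c0_g1_i1. Among 13685 contigs between 1 and 3 FPKM in both libraries, the most frequent ratio was 0.986, in a bin that held 2293 contigs against 43 in a median bin. Such a pile-up at 1 ratio can arise where libraries hold equal small numbers of fragments. This ratio is also close to no change, and the cause of the pile-up was not tested. These minor contigs may rest on few fragments, but their number is not known. The ratio does not give that number, which also depends on length. TR58985 c0_g1_i1 is listed at 1788 bases and TR64249 c0_g1_i1 at 572, so at like FPKM the former holds more fragments.

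None of the 4 members past the filter differed by 2-fold between libraries once its contigs were summed. Ratios were taken over 6478 gene symbols with a mean of at least 1 FPKM, 4 of them members (PER1, NR1D1, CLOCK and CRY1). At high PET over the surfactant control 0 of 4 members were at least 2-fold different, beside 4.85% of all symbols. At low PET over the surfactant control it was 0 of 4, beside 5.0%, and for the surfactant control over the untreated library 0 of 4, beside 4.62%. Between the concentrations, high PET over low PET, 0 of 4 passed 2-fold, beside 4.75%. Over the untreated library it was 0 of 4 at low PET, beside 4.69%, and 0 of 4 at high PET, beside 4.51%.

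The median log2 ratio of the 4 members was 0.35 at high PET over the surfactant control, beside 0.08 for all symbols, and all 4 were above 0 (0.12 to 0.43). The share of all symbols above 0 was not taken. As their median was above 0 too, this count does not set the members apart. At low PET over the surfactant control the members' median was 0.14, beside 0.03, and CRY1 was the exception below 0. For the surfactant control over the untreated library it was -0.09, beside 0.00, with CLOCK the lowest at -0.47. Between the concentrations it was 0.21, beside 0.06. These comparisons share libraries, so they are not separate evidence. At a limit of 1.5-fold, CRY1 alone was called, higher at high PET than at low PET, 1 of 4 members; of all symbols 5.82% were at least 1.5-fold higher there, and of the 1297 with a mean of 5 to 10 FPKM, 3.62%.

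**Figure D2:**
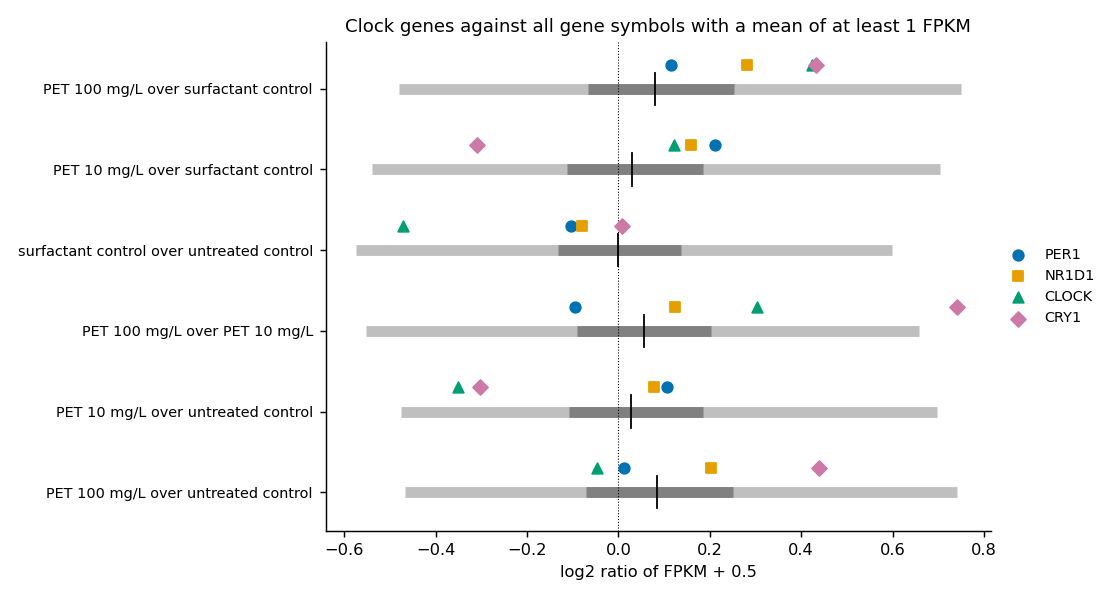
Symbols mark the log2 ratio of FPKM + 0.5 of PER1, NR1D1, CLOCK and CRY1, the members with a mean of at least 1 FPKM, in 6 comparisons between libraries; light and dark grey bars span the 5th to 95th and the 25th to 75th percentiles of all 6478 gene symbols, and the black tick is their median. CRY1 at 100 mg/L over 10 mg/L, at 0.74, lies beyond the light bar, which ends at 0.66, and the other points of these 4 genes lie within theirs. For the main CRY1 contig alone, not plotted, that ratio is 0.62, short of the end of the bar. ARNTL, under 1 FPKM, is not plotted.

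The surfactant control was the lowest library for 3 of the 4 members past the filter (PER1, NR1D1 and CLOCK), and for ARNTL as well. Over all symbols it was the lowest library in 30.4%. The high PET library was the highest for NR1D1 and CRY1, 2 of the 4, and for 40.1% of all symbols. The lowest and highest library of every member sum were the same after median-of-ratios scaling. The main contigs did not all keep these ranks. That of PER1 was lowest at low PET, at 14.92 FPKM against 15.96 in the surfactant control. Those of PER1 and CLOCK were highest at high PET, at 17.06 and 3.14 FPKM, unlike their sums. For NR1D1 the main contig was highest at high PET by a small step, at 11.79 FPKM against 11.55 at low PET. Main contigs were not ranked after scaling.

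Whether the libraries differed in clock phase was asked by subtracting the log2 ratio of the evening genes from that of the morning genes. Past the filter the morning side was the median of PER1 and NR1D1 and the evening side was CLOCK. The contrast was -0.23 at high PET over the surfactant control: PER1 at 0.12, NR1D1 at 0.28 and CLOCK at 0.42 were all higher at high PET. At low PET over the surfactant control it was 0.06, again with all 3 genes above 0. For the surfactant control over the untreated library it was 0.38, with PER1 at -0.10, NR1D1 at -0.08 and CLOCK at -0.47. In these comparisons the morning and evening genes had ratios of the same sign and of different size. PER1 and CLOCK had opposite signs in the remaining 3 comparisons. For low PET over the untreated library PER1 was at 0.11 and CLOCK at -0.35, with a contrast of 0.44. For high PET over the untreated library they were at 0.01 and -0.05, with a contrast of 0.15. For high PET over low PET the signs were the other way, PER1 at -0.09 and CLOCK at 0.30, while NR1D1 was at 0.12, and the contrast was -0.29.

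Within each library, PER1 was at 4.09 times the FPKM of CLOCK in untreated larvae, 5.43 times in the surfactant control, 5.74 times at low PET and 4.28 times at high PET. NR1D1 was at 1.75 times the FPKM of CLOCK untreated, 2.35 with surfactant, 2.41 at low PET and 2.10 at high PET. PER1 over NR1D1, a ratio of morning genes, was at 2.34 untreated, 2.30 with surfactant, 2.39 at low PET and 2.04 at high PET. The spread of PER1 over CLOCK, 1.40-fold between the extreme libraries, was thus wider than the 1.17-fold of PER1 over NR1D1. PER1 over CRY1, a gene of neither set, spread wider still, at 1.87-fold. CLOCK is also a lower sum than NR1D1. The median log2 range of symbols was 0.33 at the level of CLOCK and 0.25 at that of NR1D1, so a wider spread alone does not mark an evening gene.

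The contrast depended on which contigs stood for the genes. With the main contig alone for PER1, NR1D1 and CLOCK together, its sign turned in 5 of the 6 comparisons: it was -0.06 for the surfactant control over the untreated library, -0.17 at low PET and -0.11 at high PET over the surfactant control, and 0.06 between the concentrations. Over the untreated library it was -0.23 at low PET and -0.17 at high PET. When CLOCK alone was replaced by 1 of its components, the sign turned in 2 of the 6 comparisons with TR88076 and in 2 with TR58039. Both components gave a contrast above 0 for the surfactant control over the untreated library, at 0.30 with TR88076 and 0.39 with TR58039. Both did so again for low PET over the untreated library, at 0.27 and 0.58. In the other 4 comparisons the components gave opposite signs, for example -0.61 with TR88076 and 0.45 with TR58039 for high PET over the surfactant control. A single harvest per library cannot separate phase from level or amplitude.

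**Figure D3:**
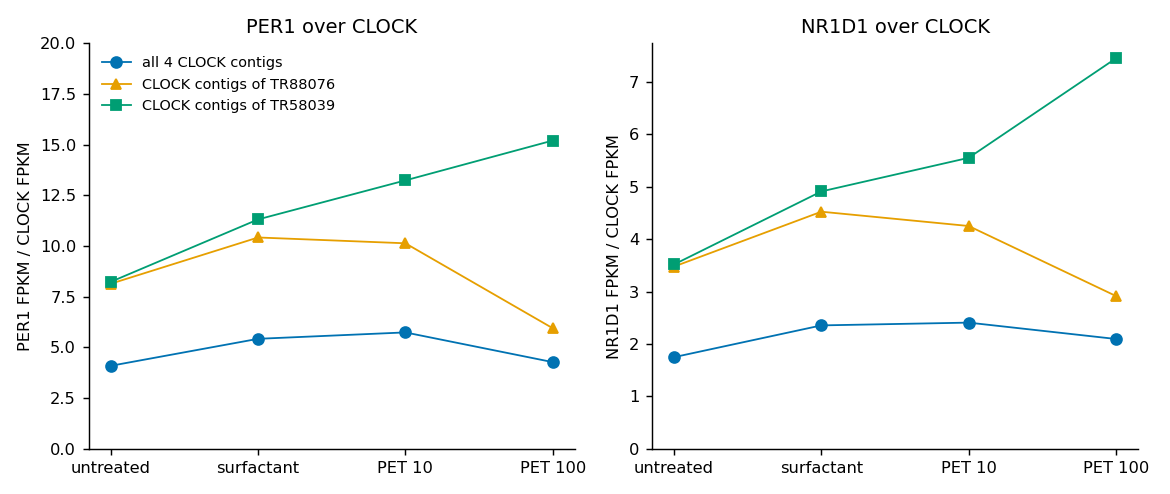
Lines join the FPKM of PER1 (left) or NR1D1 (right) divided by that of CLOCK in each library, with CLOCK taken as all 4 contigs, as component TR88076 or as component TR58039. At 100 mg/L the PER1 ratio is 15.2 with TR58039 and 5.95 with TR88076, while in the untreated library it is 8.24 and 8.14.

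Some transcripts of the immediate early list were, like the CLOCK sum, highest in the untreated library and lowest in the surfactant control. EGR1, a transcription factor of that response, was at 40.7 FPKM in untreated larvae, 24.8 in the surfactant control, 25.8 at low PET and 36.0 at high PET. JUNB, another early factor, was at 77.0 FPKM untreated, 52.0 with surfactant, 65.6 at low PET and 68.0 at high PET. ATF3, a stress-induced factor, was also lowest in the surfactant control but highest at high PET, with 9.36 FPKM untreated, 5.24 with surfactant, 9.25 at low PET and 10.1 at high PET. FOS and JUN had another order, lowest in the untreated library and highest at high PET. FOS was at 3.99 FPKM untreated, 4.52 with surfactant, 4.73 at low PET and 5.34 at high PET. JUN was at 0.73 FPKM untreated, 1.01 with surfactant, 1.01 at low PET and 1.29 at high PET. The immediate early list (5 of 7 names matched; FOSB and IER2 not) summed to 131.8 FPKM untreated, 87.5 with surfactant, 106.4 at low PET and 120.7 at high PET, a sum made up mostly of JUNB and EGR1. Its part in the clock values was not tested. The liver list (5 of 10 matched) summed to 138.8 FPKM untreated, 174.6 with surfactant, 176.2 at low PET and 211.8 at high PET. Most of the liver sum was FGG, at 124.5 FPKM untreated, 157.0 with surfactant, 149.9 at low PET and 185.3 at high PET. The skeletal muscle list (5 of 7) was at 9582 FPKM untreated, 9082 with surfactant, 8817 at low PET and 8102 at high PET. Most of this was CKM, at 8402 FPKM untreated, 7681 with surfactant, 7526 at low PET and 6977 at high PET. TTN and TNNI2 were instead highest in the surfactant control, and TPM1 and ACTA1 at low PET. The photoreceptor list (9 of 12) was at 459 untreated, 472 with surfactant, 418 at low PET and 456 at high PET. Markers of all 3 tissues were thus present in each library of these whole-body samples, and their part was not tested either. Past the filter were 9 photoreceptor, 4 liver and 5 muscle genes. Of these, PDE6C (a cone phosphodiesterase), TDO2 and TF (liver) and ACTA1 (muscle actin) passed 2-fold in some comparison. Of all symbols, 4.51% to 5.0% passed that limit in each single comparison. The share past it in any of the 6 was not taken, so this count is not set against a background. ACTA1 was at 1.10 FPKM untreated, 0.77 with surfactant, 4.31 at low PET and 4.04 at high PET. TDO2 was at 0.61 untreated, 2.80 with surfactant, 3.74 at low PET and 4.28 at high PET. PDE6C was at 0.46 FPKM untreated, 1.08 with surfactant, 1.45 at low PET and 3.05 at high PET. TF was at 2.82 untreated, 1.29 with surfactant, 2.12 at low PET and 3.66 at high PET, so each of the 4 was low.

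Of 14 names listed as other loop components, 9 were matched and all 9 passed the filter, with 0 at least 2-fold different in any of the 6 comparisons. With 4.51% to 5.0% of all symbols past that limit in each comparison, a count of 0 does not set these genes apart. NR1D2, the second REV-ERB, was the most abundant at 69.4 FPKM in untreated larvae, 65.54 in the surfactant control, 63.24 at low PET and 64.75 at high PET, and unlike NR1D1 was highest in the untreated library. RORB, a receptor of the ROR family that competes with REV-ERB at the same DNA elements, was at 37.43 FPKM untreated, 35.38 with surfactant, 38.46 at low PET and 41.9 at high PET. HLF, a PAR bZIP factor like DBP, was at 36.96 untreated, 36.03 with surfactant, 38.75 at low PET and 40.24 at high PET. BHLHE40, a repressor of CLOCK and BMAL activity, was at 20.41 untreated, 20.38 with surfactant, 23.03 at low PET and 24.05 at high PET. Its relative BHLHE41 had the widest difference of the list: it was at 4.35 FPKM untreated, 4.38 with surfactant, 2.37 at low PET and 3.85 at high PET, a log2 ratio of -0.77 at low PET over the surfactant control.

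Of 11 names for kinases, ubiquitin ligases and other enzymes listed for the stability of clock proteins, 9 were matched and 5 passed the filter. None of the 5 was at least 2-fold different in any comparison, which at the same shares of all symbols does not set them apart either. CSNK1A1 was the highest of them at 125.2 FPKM in untreated larvae, 122.4 in the surfactant control, 115.3 at low PET and 122.0 at high PET. CSNK1E, a kinase that phosphorylates period proteins, was at 79.2 FPKM untreated, 71.3 with surfactant, 76.2 at low PET and 73.8 at high PET, and CSNK1D, its close relative, at 74.6 untreated, 70.5 with surfactant, 72.4 at low PET and 67.3 at high PET. BTRC, a ligase subunit for period proteins, lay just under the filter with a mean of 0.998 FPKM, and was at 0.52 untreated, 0.86 with surfactant, 2.19 at low PET and 0.42 at high PET, a log2 ratio of -1.55 for high PET over low PET.

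Among genes of the other clock lists past the filter, differences of 2-fold appeared in 2 outside the loop, both at low values. Of all symbols, 4.51% to 5.0% passed that limit in each comparison. With 3 genes past the filter in each of their lists, a count of 1 cannot be read as a trait of the list. Of 12 names for clock output and melatonin, 5 were matched and 3 passed. CCRN4L (nocturnin, a rhythmic phosphatase of vertebrate tissues) was at 3.03 FPKM in the untreated library, 2.50 in the surfactant control, 0.94 at low PET and 4.19 at high PET. It was lower at low PET than in the surfactant control (log2 ratio -1.06), and higher at high PET than at low PET by 1.70. The CRY1 sum and its main contig had the same lowest and highest library. Its annotation entry Q5IZC5 was instead lowest in the surfactant control, at 4.45 FPKM against 4.63 at low PET. The share of all symbols with that pair of libraries is not given here, so this likeness does not set CCRN4L and CRY1 apart. Both contigs of CCRN4L were lowest at low PET: c0_g6_i1 of TR107771 was at 1.38 FPKM untreated, 1.72 with surfactant, 0.23 at low PET and 2.94 at high PET. The other, c0_g13_i1, was at 1.65 untreated, 0.78 with surfactant, 0.71 at low PET and 1.25 at high PET.

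Of 13 names for non-visual opsins and photolyases, 3 were matched and all 3 passed. PHR, a photolyase that repairs DNA with the energy of light, was at 1.19 FPKM in the untreated library, 0.17 in the surfactant control, 1.33 at low PET and 1.47 at high PET. Against the surfactant control its log2 ratio was 1.45 at low PET and 1.56 at high PET, and the surfactant control was lower than the untreated library, at -1.33. None of its 3 contigs exceeded 1.01 FPKM in any library, and 2 were listed at 0 in the surfactant control. OPN5, an opsin of deep-brain photoreceptors in birds, was at 6.99 FPKM untreated, 5.60 with surfactant, 7.26 at low PET and 5.84 at high PET, and RGR, an opsin of the retinal pigment epithelium, at 25.28 untreated, 32.26 with surfactant, 28.63 at low PET and 32.85 at high PET.

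**Figure D4:**
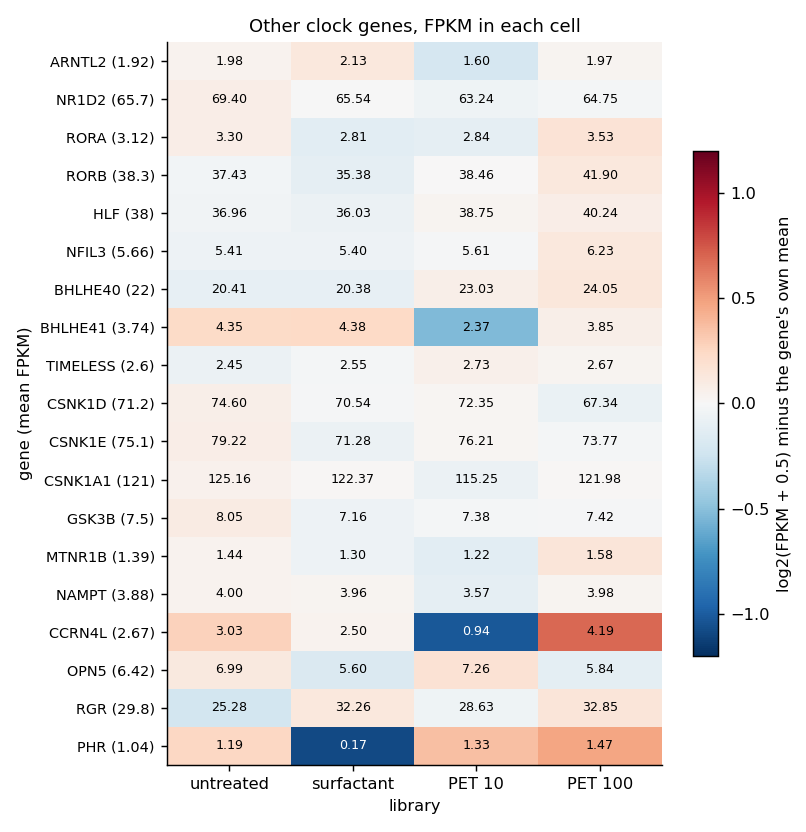
Rows are genes of the other clock lists with a mean of at least 1 FPKM (the mean in brackets; 1 such gene is not shown), and columns are libraries. The printed numbers are FPKM, and the colour is log2 of FPKM + 0.5 minus the gene's own mean over the libraries. The deepest blues are CCRN4L at 10 mg/L (0.94 FPKM) and PHR in the surfactant control (0.17 FPKM), and the kinases and NR1D2 are nearly white.

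A wider set was formed, after the values were seen, from the gene ontology terms in the table that name circadian or rhythmic processes. It held 39 symbols, 29 of them past the filter. At high PET over the surfactant control 1 of 29 was 2-fold different (3.45%), at low PET over it 2 (6.90%), and for the surfactant control over the untreated library 1 (3.45%), near the shares of all symbols given above. They were CCRN4L, GRIN3A and SLC6A4. SLC6A4, the serotonin transporter, was at 6.41 FPKM in the untreated library, 2.95 in the surfactant control, 3.05 at low PET and 6.11 at high PET. GRIN3A, a glutamate receptor subunit, was at 1.99 FPKM untreated, 3.63 with surfactant, 0.97 at low PET and 1.42 at high PET.

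The profiles most like those of the members were sought over the 4 libraries, by the root mean square difference of log2 values after each gene was centred on its own mean, among 3994 symbols with a mean of at least 5 FPKM. For CRY1 the nearest were JAGN1B, SR-LAAO, ZNF287, CAMK2B and SCN8A, at 0.053 to 0.065, and 14 symbols (0.351%) lay within 0.1. For the CLOCK sum they were DMTN, PIGF, METTL22, LHFPL3 and IER3, at 0.019 to 0.040, and 58 symbols (1.45%) lay within 0.1. DMTN (dematin, a protein of the red cell skeleton) was at 6.97 FPKM untreated, 4.94 with surfactant, 5.42 at low PET and 6.57 at high PET, beside CLOCK at 6.96 untreated, 4.88 with surfactant, 5.35 at low PET and 6.72 at high PET. For NR1D1 they were ABHD17A, TNS1, ESRRG, ST6GAL2 and SCUBE2, but 1416 symbols (35.5%) lay within 0.1, so its profile was a common one. The likeness to CLOCK is to its sum alone, as its component TR88076 was highest and TR58039 lowest at high PET. That to CRY1 is to its sum as well, at 5.83 FPKM untreated and 5.86 with surfactant. Its main contig was at 5.65 FPKM untreated and 4.45 with surfactant. With 4 points per profile such likeness is a description of these libraries.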

How the data were processed

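RNA of whole larvae was sequenced in 4 libraries, 1 per group. The deposited table gives FPKM per contig and library, per the file headers, with columns matched to groups by their names. Named in the submitters' processing notes are RSEM, Bowtie and bcl2fastq 2.20.0.422; assembly, annotation and further filters are not given in the sources used here. Read counts are not used here, so absolute depth and counting error are unknown. Among contigs of 1 to 3 FPKM the most frequent ratio to the untreated library was 1.32 in the surfactant control and 1.30 at both PET concentrations. If these are steps of equal fragment numbers, the untreated library was the deepest. Contigs above 0 had another order: 150173 in the untreated library, 143907 in the surfactant control, 151673 at low PET and 152374 at high PET. Depth itself was not tested. FPKM summed to between 1039707 and 1080208 per library.

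From these values, FPKM was summed over all contigs of a gene symbol, and log2 ratios were taken of the sum plus a pseudocount of 0.5, for symbols with a mean of at least 1 FPKM. This understates the ratio of low genes. A contig listed at 0 can be a failed isoform estimate. A ratio of at least 2-fold was called; no test was made, having 1 library per group. Genes of like level are those with a mean within a factor of 1.5. The computations were made in Python 3.11.15 with pandas 2.3.3 and numpy 2.4.6. The ratio call and the morning minus evening contrast were checked on planted differences without noise, which tests the code alone.

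The members and lists were chosen with earlier results of these data known. All members are named. From the other lists, genes past 2-fold and those with the highest means are named, with BHLHE40, BHLHE41, BTRC, OPN5, RGR, FOS, JUN, ATF3, JUNB and EGR1 chosen after their values were seen. For likeness, the 5 nearest symbols to each of the 3 members with the widest range among those past the filter (CRY1, CLOCK and NR1D1) are named. Contigs whose description was another protein (such as TEF, described as an elongation factor) were dropped from the lists, and JUNB was not counted under JUN. The promoter motif search that had been planned was not run, as no promoter sequence was at hand. Some results are not reported here.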

Additional observations from a re-analysis of the deposited data

How the results depend on the processing

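Other pseudocounts (0.1 and 1), median-of-ratios scaling, no filter, a filter at 5 FPKM and the main contig alone were tried, 1 at a time. No paired analysis was possible because each group has 1 library. The number of members past 2-fold was 0 in all 6 comparisons under each of them. With no filter ARNTL was counted too, and only the pseudocount of 0.5 kept it under 2-fold. Its ratio of plain FPKM was 0.31 for the surfactant control over the untreated library and 2.8 at 100 mg/L over the surfactant control. At a limit of 1.5-fold the number was 1 at PET 100 mg/L over 10 mg/L. The members' median log2 ratio kept its sign in each setting. It moved by 0.1 or more only with the main contig alone and with no filter. With the former it was 0.23 at 100 mg/L over the surfactant control (0.35 before). With the latter it was -0.30 at 10 mg/L over the untreated library (-0.11 before). The morning minus evening contrast was less stable. With no filter it was -0.33 at 100 mg/L over the surfactant control, 0.51 for the surfactant control over the untreated library, -0.41 at 100 mg/L over 10 mg/L and 0.59 at 10 mg/L over the untreated library. With the main contig alone it was -0.11 and -0.17 at 100 and 10 mg/L over the surfactant control, -0.057 for the surfactant control over the untreated library, 0.064 between the concentrations, and -0.23 and -0.17 at 10 and 100 mg/L over the untreated library. With wider morning (NR1D2, HLF added) and evening (ARNTL2, NFIL3 added) sets it was -0.053 at 100 mg/L over the surfactant control, -0.078 for the surfactant control over the untreated library and 0.31 at 10 mg/L over it. Taking 1 CLOCK component was an alternative chosen after seeing the data. TR88076 alone gave -0.61 at 100 mg/L over the surfactant control, -0.58 between the concentrations, and 0.27 and -0.31 at 10 and 100 mg/L over the untreated library. TR58039 alone gave 0.45 and 0.19 at 100 and 10 mg/L over the surfactant control, 0.25 between the concentrations, and 0.58 and 0.84 at 10 and 100 mg/L over the untreated library. The cause was not tested. Unknown read counts limit every value under a few FPKM.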
